A study of Mus musculus with 24 samples.

Results

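The genes described here are a set of 32 mouse genes of glycolysis and of the response to low oxygen. They were taken as the rows of the deposited count table whose Ensembl identifiers map in GENCODE M21 to a given list of symbols, and 33 of the 48985 rows matched, since Aldoa has 2 gene models. All libraries came from F121/9 cells, a female embryonic stem cell line from a cross of the 129/Sv and CAST/EiJ mouse strains, or from clones made from it. The study asked how expression changed when pieces of the genome were recombined. It named 5 recombinations, d3, d6, i7, i12 and i10, and the labels do not spell out these names. Each recombination had a parental line, whose genotype is labelled control, and 1 or 2 recombined clones: for d3 these were clone 12 and clone 21, for d6 clone 16, for i7 clone 7 and clone 12, for i12 clone 10, and for i10 clone 18. Each recombined group is therefore 1 clone, and each of the 12 lines was sequenced in 2 replicates, which the study calls biological duplicates. Cells of every group were grown on gelatin, without serum, in medium with LIF, the MEK inhibitor PD0325901 at 1 µM and the GSK-3β inhibitor CHIR99021 at 3 µM, and were split every 2 days. No oxygen level and no treatment that differs between groups is given in the labels.

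Glycolysis turns glucose into pyruvate. GLUT1 (Slc2a1) brings glucose in, hexokinases trap it, phosphofructokinase commits it, and pyruvate is then reduced to lactate, which MCT4 (Slc16a3) exports, or enters the mitochondria through pyruvate dehydrogenase. When oxygen is short, the prolyl hydroxylases Egln1 and Egln3 no longer mark the transcription factor subunit Hif1a for destruction, and the stabilised factor raises many of these genes together with Vegfa, Bnip3, Ankrd37, Ndrg1 and others. Hif1a is controlled mainly as a protein, which RNA counts do not measure. Naive embryonic stem cells use both glycolysis and respiration.

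Library totals ran from 3286819 to 15581094 counts, and the i12 and i10 libraries were the shallowest, at 3286819 to 6920899. The 33 rows held 1.02% to 1.90% of the counts of a library. Between the 2 replicates of a line, the chi-square of the counts per degree of freedom was 10.64 to 60.74, and over all pairs of libraries it was at least 2.66, so no 2 libraries agreed within sampling noise. The 9 pluripotency markers summed to 6455 to 8641 CPM (counts scaled to a common library size) in every library, whereas the 6 primitive endoderm markers summed to 1.13 to 8.92 CPM and the 6 fibroblast feeder markers to 3.92 to 25.7 CPM, with Twist1 and S100a4 at 0 counts throughout. The 6 primed epiblast and mesendoderm markers, at 41.5 to 279 CPM, and the 4 neural markers, at 64.7 to 141 CPM, varied more. In such bulk samples, fewer cells of a type and less RNA per cell cannot be told apart.

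Levels per exon length spanned almost 3 orders of magnitude. If only reads over variants between the strains were counted, the order of genes would also depend on how many variants each gene holds. Whether other reads were counted is not given in the sources used here, and this was not tested. By the median over 24 libraries, in CPM per kilobase of exon, pyruvate kinase (Pkm, 877) and enolase (Eno1, 735) were highest. Mif, a cytokine and hypoxia target, followed at 608, lactate dehydrogenase A (Ldha) at 546, aldolase A (Aldoa) at 458, Gapdh at 269 and triosephosphate isomerase (Tpi1) at 213. Apart from Adm, which had no counts, the lowest were the collagen prolyl hydroxylase P4ha2 at 1.04, the upstream Aldoa model at 1.36, the neuronal enolase Eno2 at 1.52 and Pfkfb3, which makes the activator of phosphofructokinase, at 1.73. Within families, Hk2 (99.5) lay above Hk1 (15.3), Pfkp (44.9) and Pfkl (39.2) above Pfkm (5.67), Aldoa above Aldoc (14.4), and Ldha above Ldhb (10.8). The library ranges of Hk2 and Hk1, of Pfkp and Pfkm, of Aldoa and Aldoc, and of Ldha and Ldhb did not overlap on this scale, but those of Pfkp and Pfkl did. Hif1a was at 13.4, Slc2a1 at 31.5, Slc16a3 at 6.45 and the pyruvate dehydrogenase kinase Pdk1 at 33.7 CPM per kilobase.

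**Figure D1:**
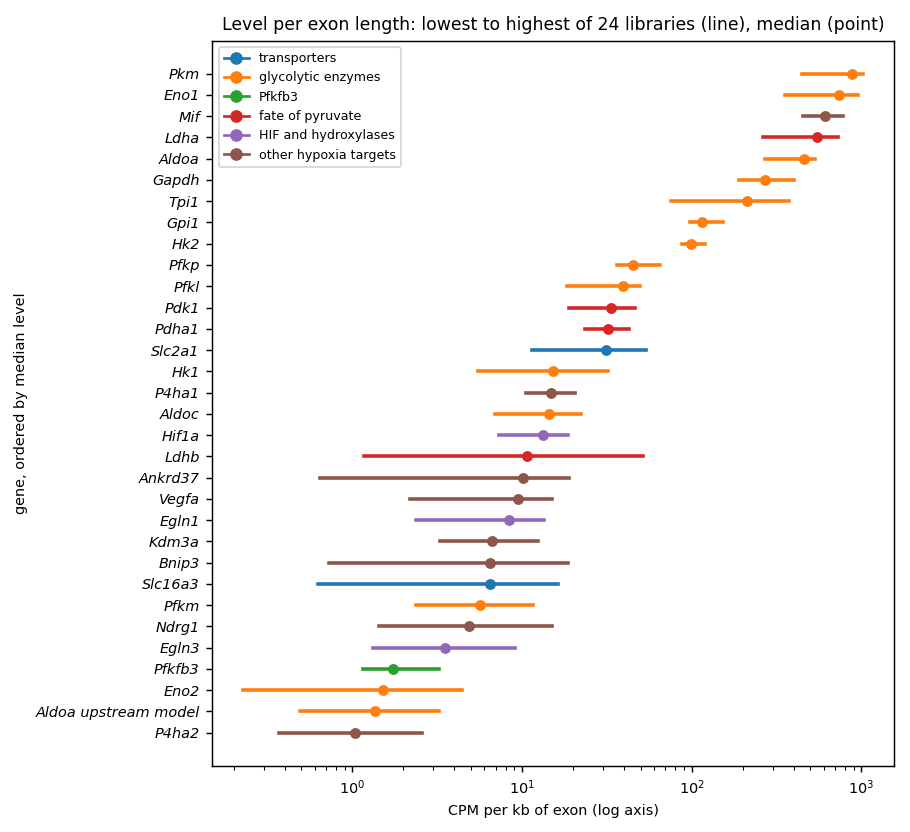
Level of 32 rows in CPM per kilobase of exon, on a log axis, with the median of 24 libraries as a point and the lowest to the highest library as a line, coloured by role. Medians run from 1.04 for P4ha2 to 877 for Pkm, and the lines of Ldhb, Ankrd37, Bnip3, Slc16a3 and Eno2 are among the longest.

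Adm, which encodes the vasodilator adrenomedullin and is a known hypoxia target, had 0 counts in all 24 libraries. A count of 0 allows up to 3 counts, or 0.198 to 0.905 CPM depending on the library, counting error only. This limit does not cover any reads left uncounted for want of a variant, and Adm was not tested. The spread of single genes between libraries, as the highest over the lowest CPM, was smallest for Hk2 (1.37-fold, 521 to 712 CPM), Gpi1 (1.58-fold, 628 to 993 CPM), Mif (1.72-fold, 337 to 579.9 CPM) and Pfkp (1.79-fold, 485 to 870.3 CPM). It was largest for Ldhb (44.1-fold, 1.85 to 81.5 CPM), Ankrd37 (29.5-fold, 0.986 to 29.1 CPM), Slc16a3 (25.99-fold, 3.35 to 87.2 CPM), Bnip3 (25.6-fold, 1.65 to 42.2 CPM) and Eno2 (19.4-fold, 1.07 to 20.8 CPM). The abundant enzymes Pkm (2227 to 5145 CPM), Eno1 (1920.3 to 5169 CPM), Gapdh (790.5 to 1652 CPM), Aldoa (783 to 1549 CPM), Ldha (867 to 2412 CPM) and Tpi1 (208 to 1035 CPM) differed 1.98-fold to 4.99-fold between libraries. The other genes ranged as follows, in CPM: Hk1 46.7 to 273, Pfkl 124 to 330.1, Pfkm 7.93 to 38.9, Pfkfb3 8.70 to 24.4, Aldoc 22.5 to 72.7, Pdk1 147 to 360.4, Pdha1 88.2 to 159 and Slc2a1 40.4 to 189. Among the oxygen sensors and targets the ranges were 43.3 to 110.3 for Hif1a, 8.48 to 48.2 for Egln1, 3.53 to 24.2 for Egln3, 9.38 to 64.6 for Vegfa, 43.2 to 84.3 for P4ha1, 2.31 to 15.99 for P4ha2, 9.41 to 99.6 for Ndrg1 and 27.1 to 102 for Kdm3a. The upstream Aldoa model was near 0 (0.394 to 2.60 CPM).

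Some of these genes have near-identical copies, and how the authors counted reads that match several places is not given in the sources used here. Of all 75-base words in the GENCODE M21 transcripts of a gene, the share found in another gene was 28.2% for Mif, 23.0% for Eno1, 22.6% for Gapdh, 17.8% for Pkm, 12.6% for Ldhb, 11.4% for Bnip3 and 8.13% for Pfkm. It was 4.17% or less for Gpi1, Ldha, Tpi1, Hif1a and Aldoa, and 0% for the others. Levels and allelic shares of the first 7 are therefore uncertain.

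Many of these genes differed between the replicates of the same lines. The labels do not say in what replicate 1 and replicate 2 differ, and replicates have no order, so the sign below only names the numbers. Changes are log2 differences of replicate 2 against replicate 1 over the lines of a recombination (3 lines in d3 and i7, 2 in d6, i12 and i10), with standard errors (SE), from 1 fit of 16253 genes. A gene was called when the Benjamini-Hochberg adjusted p of edgeR's quasi-likelihood test was under 0.05. In d3, 17 of the 32 tested rows were called, 15 higher and 2 lower in replicate 2, where 28.6% of all genes were called (14.6% higher, 14.1% lower). In d6 it was 13, 10 higher and 3 lower, against 19.6% of all genes (10.4% and 9.27%). In i7 it was 4, 1 higher and 3 lower, against 4.31% (2.19% and 2.12%). In i12 the balance was the other way: 19 called, 5 higher and 14 lower, against 19.4% of all genes (10.5% and 8.85%). In i10 it was 22 called, 7 higher and 15 lower, against 17.7% (9.57% and 8.09%). The median change of the 32 rows was 0.30 in d3, 0.21 in d6, -0.02 in i7, -0.16 in i12 and -0.39 in i10, whereas the median of all genes lay between -0.01 and 0.01. Leaving out 1 library at a time kept 14 of the 17 calls in d3 and 7 of the 13 in d6. It kept 10 of the 19 in i12, 12 of the 22 in i10 and 0 of the 4 in i7. The count was 8 in d6 without either clone 16 library, 11 in i12 without parental replicate 1, and 12 in i10 without either parental library. In i7 it was 2 without a parental, 1 without a clone 7 and 0 without a clone 12 library.

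**Figure D2:**
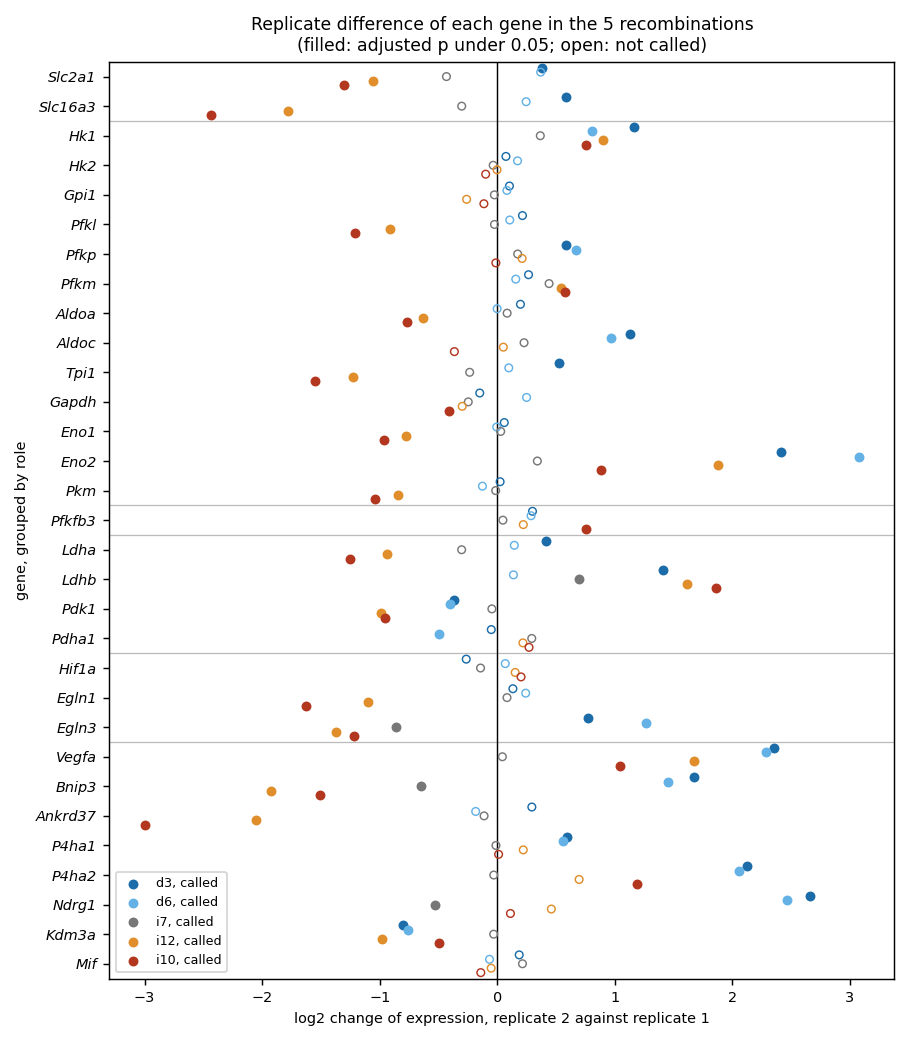
log2 change of replicate 2 against replicate 1 for 31 genes (rows, grouped by role) in the 5 recombinations (colours), filled where the adjusted p was under 0.05 and open otherwise. For Slc16a3, Tpi1, Ldha, Bnip3 and Egln3 the d3 points lie right of 0 and the i12 and i10 points left of 0, and for Vegfa and Eno2 all 4 lie right of 0.

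The transporters were higher in replicate 2 of d3 and lower in replicate 2 of i12 and i10. Slc2a1 in d3 was at 119.7, 128 and 110.1 CPM in replicate 1 and 189, 132 and 150.1 CPM in replicate 2 (parental line, clone 12, clone 21; change 0.38 ± 0.12 SE, edgeR adjusted p = 0.0274). In i12 it was at 104 and 105 CPM in replicate 1 and 42.3 and 58.9 CPM in replicate 2 (parental line, clone 10; -1.06 ± 0.17, edgeR adjusted p = 3.67e-04), and in i10 at 110.5 and 90.6 CPM in replicate 1 and 40.4 and 40.4 CPM in replicate 2 (parental line, clone 18; -1.30 ± 0.17, 8.62e-05). Replicates 1 and 2 did not overlap in any of these 3. In d6 it was at 135 and 111 CPM in replicate 1 and 156 and 159 CPM in replicate 2 (parental line, clone 16) and in i7 at 116, 101 and 146 CPM in replicate 1 and 94.5, 72.4 and 102 CPM in replicate 2 (parental line, clone 7, clone 12), neither called. Slc16a3, the lactate exporter, was lowest in replicate 2 of i10 and i12. In i10 it was at 38.7 and 26.1 CPM in replicate 1 and 9.36 and 3.35 CPM in replicate 2 (-2.43 ± 0.35, edgeR adjusted p = 2.28e-04) and in i12 at 38.03 and 29.96 CPM in replicate 1 and 10.4 and 9.19 CPM in replicate 2 (-1.78 ± 0.32, 0.00108). In d3 its levels were 33.5, 50.8 and 35.7 CPM in replicate 1 and 87.2, 45.7 and 52.1 CPM in replicate 2 and overlapped, although the change was called (0.59 ± 0.20, edgeR adjusted p = 0.036). It was at 39.3 and 33.7 CPM in replicate 1 and 40.4 and 45.6 CPM in replicate 2 in d6 and at 34.9, 24.03 and 39.4 CPM in replicate 1 and 29.7, 20.5 and 29.1 CPM in replicate 2 in i7, without a call. The d3 calls of Slc2a1 and Slc16a3 were lost without any one of the parental or clone 21 libraries, and the i12 call of Slc16a3 without parental replicate 1.

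Among the enzymes from hexokinase to pyruvate kinase, Pkm, Eno1, Pfkl and Aldoa were lower in replicate 2 of i12 and i10 and not called in d3 or d6. Their log2 changes in i12 and i10 were -0.84 and -1.04 for Pkm, -0.78 and -0.96 for Eno1, -0.92 and -1.21 for Pfkl and -0.63 and -0.77 for Aldoa, with 6 rows in all (Ankrd37 and Egln1 too) showing this pattern, against 2.15% of all genes. The Pkm level in i10 was 5145 and 4725 CPM in replicate 1 and 2572 and 2227 CPM in replicate 2, and that of Eno1 was 4091 and 3926 CPM in replicate 1 and 2208 and 1920.3 CPM in replicate 2. The 4 parental and clone libraries did not overlap by replicate number in either gene. Tpi1 was lower in both (-1.23 and -1.55) and higher in d3 (0.53), and Gapdh was called lower in i10 (-0.41, edgeR adjusted p = 0.026), a call lost without any one of the i10 libraries. Hk1, the constitutive hexokinase, was higher in replicate 2 of d3, d6, i12 and i10 (1.16, 0.81, 0.90 and 0.76), whereas the inducible Hk2 and the isomerase Gpi1 were called in none of the 5. Pfkp was called higher in d3 and d6 (0.58 and 0.67), Pfkm in i12 and i10 (0.54 and 0.57), and Aldoc in d3 and d6 (1.13 and 0.96). These patterns refer to calls. The Pfkm calls were lost without any one of the i12 or i10 libraries. Without i12 parental replicate 1 or 2, those of Pfkl, Aldoa and Eno1 in i12 were lost. The Hk1 call was lost in d6 without parental replicate 2 and in i10 without either parental library, and the Pfkp call in d6 without either clone 16 library.

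Eno2 had the largest change of all 32 rows in d6. Its levels there were 1.25 and 1.11 CPM in replicate 1 and 10.9 and 9.28 CPM in replicate 2 (3.08 ± 0.28, edgeR adjusted p = 4.98e-06), and in d3 1.07, 1.52 and 1.47 CPM in replicate 1 and 5.45, 6.28 and 10.7 CPM in replicate 2 (2.41 ± 0.22, 1.20e-06). In i12 it was at 5.47 and 2.18 CPM in replicate 1 and 19.9 and 8.24 CPM in replicate 2 (1.88) and in i10 at 5.33 and 6.52 CPM in replicate 1 and 11.5 and 10.5 CPM in replicate 2 (0.89), both called and higher in replicate 2, the i10 call lost without any one of its libraries. In i7 it was at 8.01, 6.63 and 15.8 CPM in replicate 1 and 7.69, 10.4 and 20.8 CPM in replicate 2 and was not called. Every replicate 2 library lay above every replicate 1 library of its recombination, except in i7. Pfkfb3 was called in i10 alone (0.76, edgeR adjusted p = 0.018), and that call was lost without any one of the i10 libraries.

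The genes that decide the fate of pyruvate did not move as 1 group. Ldha, which makes lactate, was at 2137 and 2041 CPM in replicate 1 and 945 and 1252 CPM in replicate 2 in i12 (-0.94 ± 0.15, edgeR adjusted p = 3.35e-04) and at 2286 and 2051 CPM in replicate 1 and 953 and 867 CPM in replicate 2 in i10 (-1.25 ± 0.15, 3.87e-05). In d3 it was at 1371, 1587 and 1384 CPM in replicate 1 and 2167, 1849.5 and 1768 CPM in replicate 2 (0.41 ± 0.12, edgeR adjusted p = 0.0152). So it was lower in replicate 2 of i12 and i10 and higher in replicate 2 of d3. In d6 Ldha was at 2113 and 1885 CPM in replicate 1 and 2142 and 2274 CPM in replicate 2 and in i7 at 1665, 1622 and 2412 CPM in replicate 1 and 1605, 1155 and 1873 CPM in replicate 2, without a call. The d3 call was lost without parental replicate 2 and the i12 call without parental replicate 1. Ldhb, the isoform that favours lactate oxidation, was higher in replicate 2 of the same i12 and i10 lines: 26.9 and 23.6 CPM in replicate 1 and 81.5 and 72.5 CPM in replicate 2 in i12 (1.61 ± 0.17, edgeR adjusted p = 1.93e-05) and 16.003 and 22.5 CPM in replicate 1 and 71.2 and 67.7 CPM in replicate 2 in i10 (1.87 ± 0.18, 8.29e-06). It was also higher in d3 (2.64, 1.85 and 2.62 CPM in replicate 1 and 6.37, 5.38 and 7.15 CPM in replicate 2; 1.41) and in i7 (9.19, 8.88 and 9.18 CPM in replicate 1 and 12.02, 18.7 and 13.9 CPM in replicate 2; 0.70), and not called in d6 (17.8 and 18.1 CPM in replicate 1 and 19.5 and 19.9 CPM in replicate 2). The i7 call of Ldhb was lost without any one of the clone 7 or clone 12 libraries. Pdk1, the kinase that shuts pyruvate dehydrogenase, was lower in replicate 2 of 4 recombinations: 263, 255 and 229.6 CPM in replicate 1 and 183, 204 and 191 CPM in replicate 2 in d3 (-0.37), 315 and 342 CPM in replicate 1 and 242 and 256 CPM in replicate 2 in d6 (-0.40), 343 and 334 CPM in replicate 1 and 173 and 169.6 CPM in replicate 2 in i12 (-0.98) and 346 and 274 CPM in replicate 1 and 172 and 147 CPM in replicate 2 in i10 (-0.95). In i7 Pdk1 was at 269, 262 and 360.4 CPM in replicate 1 and 267, 261 and 331 CPM in replicate 2 (-0.05, not called). Its d6 call was lost without any one of the d6 libraries. Pdha1, a subunit of pyruvate dehydrogenase, was called in d6 alone (-0.49, edgeR adjusted p = 0.0168), and not without either clone 16 library.

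Hif1a itself was called in no recombination. Its levels by replicate 1 and then replicate 2 were 81.4, 78.4 and 79.4 and then 43.3, 98.3 and 67.1 CPM in d3, and 79.9 and 67.1 and then 81.8 and 72.01 CPM in d6. They were 97.8, 110.3 and 86.2 and then 87.9, 91.9 and 85.7 CPM in i7, 74.9 and 65.000 and then 81.003 and 74.2 CPM in i12, and 64.4 and 60.1 and then 67.9 and 75.4 CPM in i10. The change was -0.26 ± 0.16 in d3 and 0.20 ± 0.21 in i10, and the replicates overlapped in every recombination but i10. Egln1, the main oxygen sensor of this pathway, was lower in replicate 2 of i12 (33.04 and 28.1 CPM in replicate 1 and 15.3 and 13.2 CPM in replicate 2; -1.10 ± 0.15, edgeR adjusted p = 1.74e-04) and of i10 (32.01 and 27.5 CPM in replicate 1 and 10.9 and 8.48 CPM in replicate 2; -1.63 ± 0.17, 1.21e-05). It was at 36.9, 34.7 and 32.97 CPM in replicate 1 and 40.3, 36.1 and 38.3 CPM in replicate 2 in d3, at 41.3 and 39.95 CPM in replicate 1 and 48.2 and 47.9 CPM in replicate 2 in d6 and at 20.1, 17.2 and 24.6 CPM in replicate 1 and 22.2, 19.1 and 24.1 CPM in replicate 2 in i7, without a call. Egln3, a hydroxylase that is itself a hypoxia target, had opposite signs: 9.46 and 10.4 CPM in replicate 1 and 24.2 and 23.6 CPM in replicate 2 in d6 (1.27 ± 0.21, edgeR adjusted p = 5.74e-04), but 11.2 and 9.74 CPM in replicate 1 and 4.59 and 3.53 CPM in replicate 2 in i12 (-1.37 ± 0.30, 0.00422). In d3 it was also higher (6.85, 6.61 and 6.54 CPM in replicate 1 and 10.1, 11.9 and 12.3 CPM in replicate 2; 0.77), and in i10 (12.2 and 7.73 CPM in replicate 1 and 3.92 and 4.34 CPM in replicate 2; -1.22) and i7 (7.87, 9.35 and 17.7 CPM in replicate 1 and 5.74, 3.56 and 10.4 CPM in replicate 2; -0.86) lower. The i12 and i7 calls of Egln3 rested on single libraries: in i12 each of the 4, in i7 each clone 7 or clone 12 library ended the call, and in i10 each parental library did.

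Of the 8 tested hypoxia targets outside glycolysis, 6 were called in d3, 6 in d6, 2 in i7, 4 in i12 and 5 in i10. The shares of all genes were 28.6%, 19.6%, 4.31%, 19.4% and 17.7% in the same order. Ndrg1, a stress gene named for its regulation by N-Myc, was at 9.41, 10.04 and 11.5 CPM in replicate 1 and 53.3, 72.6 and 70.6 CPM in replicate 2 in d3 (2.66 ± 0.13, edgeR adjusted p = 2.01e-09). In d6 it was at 18.1 and 17.5 CPM in replicate 1 and 96.8 and 99.6 CPM in replicate 2 (2.46 ± 0.16, 1.68e-07). In i12 (29.2 and 25.6 CPM in replicate 1 and 44.3 and 32.03 CPM in replicate 2) and i10 (32.2 and 34.3 CPM in replicate 1 and 36.8 and 35.1 CPM in replicate 2) it was not called, and in i7 replicate 2 was lower (29.8, 26.6 and 60.7 CPM in replicate 1 and 20.3, 23.2 and 34.9 CPM in replicate 2; -0.53, edgeR adjusted p = 0.0228), a call lost without any one of the parental or clone 12 libraries. Vegfa, which encodes the vascular growth factor, was higher in replicate 2 of d3 (9.91, 9.38 and 10.2 CPM in replicate 1 and 46.4, 47.3 and 58.4 CPM in replicate 2; 2.36 ± 0.14) and of d6 (14.4 and 11.3 CPM in replicate 1 and 63.7 and 61.2 CPM in replicate 2; 2.29 ± 0.17). It was also higher in i12 (16.4 and 12.5 CPM in replicate 1 and 51.5 and 40.7 CPM in replicate 2; 1.68) and in i10 (16.2 and 23.9 CPM in replicate 1 and 38.6 and 43.4 CPM in replicate 2; 1.05), and not called in i7 (64.6, 51.8 and 31.8 CPM in replicate 1 and 53.1, 54.4 and 40.7 CPM in replicate 2; 0.04). Its i10 call was lost without either parental library. The lowest replicate 2 library in these 4 recombinations stood above the highest replicate 1 library of the same recombination. Bnip3, a mitophagy receptor, had opposite signs: 9.25, 11.6 and 8.26 CPM in replicate 1 and 28.8, 30.7 and 33.2 CPM in replicate 2 in d3 (1.67 ± 0.15, edgeR adjusted p = 8.71e-07) and 16.6 and 14.1 CPM in replicate 1 and 41.5 and 42.2 CPM in replicate 2 in d6 (1.45), but 9.98 and 6.11 CPM in replicate 1 and 2.55 and 1.65 CPM in replicate 2 in i12 (-1.93 ± 0.34, 9.40e-04). In i10 Bnip3 was at 15.2 and 8.69 CPM in replicate 1 and 3.62 and 4.34 CPM in replicate 2 (-1.51) and in i7 at 25.6, 20.003 and 35.3 CPM in replicate 1 and 15.9, 13.8 and 21.5 CPM in replicate 2 (-0.65), lower in replicate 2 in both. Bnip3 and Egln3 were the 2 of 32 rows called higher in d3 and d6 and lower in i12 and i10, against 0.0431% of all genes. The Bnip3 calls in i12 and i10 were lost without either parental library, and that in i7 without any one of the i7 libraries.

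**Figure D3:**
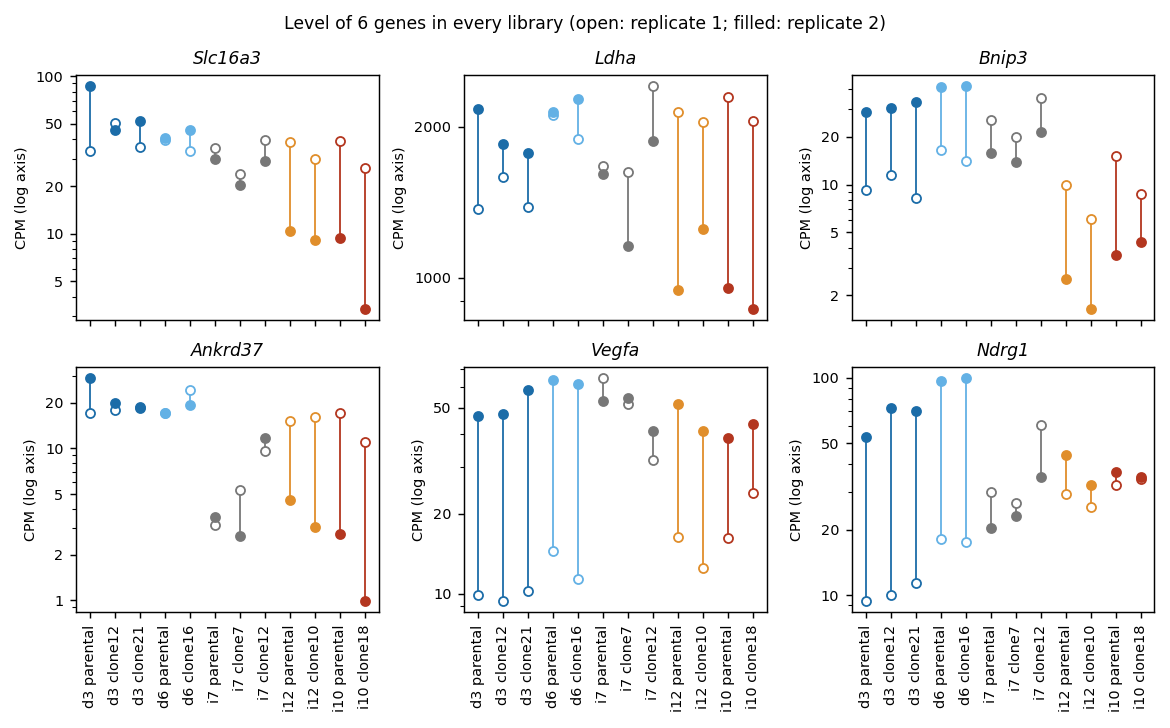
Level of 6 genes in every library, in CPM on a log axis, with replicate 1 open and replicate 2 filled, and the lines of a recombination in 1 colour. Vegfa and Ndrg1 replicate 2 lie far above replicate 1 in the 5 d3 and d6 lines, and Slc16a3, Ldha, Bnip3 and Ankrd37 replicate 2 lie below replicate 1 in the 4 i12 and i10 lines.

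Ankrd37, a small nuclear protein whose gene is a strong hypoxia target, was the most reduced row in replicate 2 of i12 and i10. It was at 17.1 and 11.1 CPM in replicate 1 and 2.72 and 0.986 CPM in replicate 2 in i10 (-3.00 ± 0.43, edgeR adjusted p = 1.82e-04) and at 15.2 and 16.1 CPM in replicate 1 and 4.59 and 3.06 CPM in replicate 2 in i12 (-2.05 ± 0.35, 7.98e-04). The lowest of these values rests on 5 counts. In d3 (17.2, 18.04 and 18.8 CPM in replicate 1 and 29.1, 19.9 and 18.5 CPM in replicate 2), d6 (17.3 and 24.3 CPM in replicate 1 and 17.2 and 19.2 CPM in replicate 2) and i7 (3.15, 5.33 and 9.66 CPM in replicate 1 and 3.53, 2.65 and 11.8 CPM in replicate 2) the replicates overlapped and nothing was called. P4ha2 was higher in replicate 2 of d3 (3.55, 2.31 and 3.11 CPM in replicate 1 and 13.2, 11.9 and 13.9 CPM in replicate 2; 2.13 ± 0.22) and d6 (2.60 and 4.44 CPM in replicate 1 and 13.4 and 15.99 CPM in replicate 2; 2.06 ± 0.27), with a further call in i10 (3.62 and 4.11 CPM in replicate 1 and 10.9 and 6.90 CPM in replicate 2; 1.19) that was lost without any one of the i10 libraries. It was at 6.42 and 2.62 CPM in replicate 1 and 9.68 and 4.71 CPM in replicate 2 in i12 and at 7.87, 7.81 and 4.83 CPM in replicate 1 and 5.65, 6.57 and 7.49 CPM in replicate 2 in i7. P4ha1, its relative, was higher in d3 and d6 (0.59 and 0.56), the d6 call lost without any one of the d6 libraries. Kdm3a, a histone demethylase and hypoxia target, went the other way and was lower in d3, d6, i12 and i10 (-0.80, -0.76, -0.98 and -0.49). Its calls were lost in d6 and i12 without either clone library and in i10 without any one of the libraries. Mif was called in none.

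Whether the replicate difference itself differed between the 5 recombinations was tested jointly, and 25 of the 32 rows were called, against 24.7% of all genes. As a mean over the recombinations, 25 rows were called, 11 higher and 14 lower, against 42.6% (22.4% and 20.2%). Without i10 this mean gave 15. The joint test, this mean and the patterns of direction across recombinations depend on how the replicates were numbered in each recombination. Swapping the numbers within any recombination would change them. Of the 32 rows, 7 were called in both directions across the recombinations (Bnip3, Egln3, Ldha, Ndrg1, Slc16a3, Slc2a1 and Tpi1), against 3.45% of all genes. Higher in replicate 2 of d3, d6, i12 and i10 were 3 (Eno2, Hk1 and Vegfa), against 2.12%, and lower in all 4 were Kdm3a and Pdk1, against 1.54%. Called higher in d3 and d6 and not in i12 or i10 were 4 (Aldoc, Ndrg1, P4ha1 and Pfkp), against 2.93%, and 5 rows were called in no recombination (Gpi1, Hif1a, Hk2, Mif and the upstream Aldoa model), against 50.9%. On both alleles the replicate difference had the same sign in the genes given here, but its size could differ. In i10, Ankrd37 changed by -3.06 on the 129S1 and by -2.80 on the CAST allele (log2 of the mean CPM), Slc16a3 by -2.56 and -2.13, and Ldha by -1.25 and -1.26. In d3, Vegfa changed by 2.15 and 2.66, Bnip3 by 1.64 and 1.71, and Ndrg1 by 2.37 and 3.66. The gap was wider in Ndrg1 in d6, at 2.10 on the 129S1 and 4.18 on the CAST allele, and in Eno2 in d3, at 1.31 and 3.31. These allelic values are given without a test.

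Other genes of the pathway, from lists given with earlier results known, were called as follows, to be read against the 28.6% of all genes called in d3, 19.6% in d6, 4.31% in i7, 19.4% in i12 and 17.7% in i10. Of 28 further genes of glycolysis and pyruvate use, 11 were called in d3 (9 higher, 2 lower), 6 in d6 (4 and 2), 1 in i7 (lower), 6 in i12 (2 and 4) and 7 in i10 (3 and 4). Of 35 further hypoxia targets, 18 were called in d3 (12 and 6), 16 in d6 (12 and 4), 1 in i7 (higher), 10 in i12 (3 and 7) and 8 in i10 (3 and 5). The shares of the glycolysis list in d6 and i12 and of the regulators in d3, d6, i12 and i10 were thus near or below those of all genes. Ddit4, an mTOR inhibitor induced by stress, was the most changed of the hypoxia targets in d3, d6 and i12, at 3.15 ± 0.18 (SE) in d3, 2.72 ± 0.22 in d6 and 2.00 ± 0.22 in i12. Of 14 regulators of HIF, 3 were called in d3, 3 in d6, 0 in i7, 3 in i12 and 2 in i10, all lower; in i7, 1 of them had an unadjusted p under 0.05. Arnt2, a HIF partner subunit, changed by -1.82 ± 0.21 in d3 and -1.79 ± 0.28 in d6, and Egln2 by -0.97 ± 0.15 in i12. Pgam1, phosphoglycerate mutase, was lower in i12 and i10 (-0.96 ± 0.15 and -1.11 ± 0.15).

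Other measures moved with the replicate number as well. The 9 pluripotency markers summed to 7596 to 7747 CPM in replicate 1 and 8142 to 8273 CPM in replicate 2 of d3. In d6 the sums were 7303 to 7402 and 7542 to 7594 CPM. In i7 they were 8469 to 8641 and 7786 to 7905 CPM, and in i12 7226 to 7266 and 6455 to 6863 CPM. In i10 they overlapped. The primitive endoderm sums were 2.31 to 2.58 and 1.13 to 1.88 CPM in d3. They were 2.66 to 5.14 and 7.69 to 7.85 CPM in i10, and overlapped in d6, i7 and i12. The primed epiblast and mesendoderm markers, 5 of which could be tested, summed to 264 to 279 CPM in replicate 1 and 131 to 160 CPM in replicate 2 of d3, and to 134 to 186 and 50.7 to 50.9 CPM in i10. In i12 the sums were 132 to 185 and 41.5 to 71.1 CPM, in d6 262 to 263 and 146 to 157 CPM, and in i7 70.5 to 145 and 61.9 to 97.7 CPM. Of the 5, 3 were called lower in d3, 2 in d6, 0 in i7, 2 in i12 and 1 in i10. These counts and those of the neural markers below are to be read against the shares of all genes given above. Fgf5 stayed under 1 CPM in every library. The 4 neural markers summed to 69.9 to 78.5 CPM in replicate 1 and 119 to 129 CPM in replicate 2 of d3, to 128 to 141 and 66.9 to 90.4 CPM in i12, and to 114 to 118 and 75.6 to 81.8 CPM in i10. These sums did not overlap. They lay higher in replicate 2 of d3 and lower in replicate 2 of i12 and i10, as did Slc2a1 and Ldha. The feeder sums given below had the same pattern in d3, i12 and i10. Most of the neural sum came from Nes and Tubb3 (medians 47.2 and 43.7 CPM), with Sox1 at 1.67 and Pax6 at 0.117 CPM. In d6 (85.9 to 95.4 and 87.3 to 107 CPM) and i7 (64.7 to 95.4 and 71.9 to 106 CPM) the neural sums overlapped. Of the 3 neural markers tested, 3 were called in d3 (2 higher), 2 in d6 (1 higher), 0 in i7, 1 in i12 (lower) and 2 in i10 (1 higher). The feeder markers summed to 7.53 to 11.2 CPM in replicate 1 and 15.7 to 21.7 CPM in replicate 2 of d3, to 5.33 to 5.72 and 8.03 to 10.96 CPM in d6, and to 10.3 to 11.4 and 3.92 to 5.33 CPM in i10. In i12 the sums were 11.9 to 14.5 and 8.15 to 11.5 CPM, and in i7 they overlapped. The share of mitochondrial counts was 2.85% to 3.84% in replicate 1 and 4.42% to 5.91% in replicate 2 of i12 and i10, and overlapped in d3, d6 and i7. The part of these measures in the results on glycolysis genes was not tested.

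The core of the element that HIF binds is ACGTG or GCGTG. Both were searched on both strands in the 250 bases upstream of each annotated start in RefSeq (GRCm38.p6), where 31 of the 32 symbols had an entry, all but Ndrg1. ACGTG was found in 40.43% of the 47 windows of these genes and in 16.57% of all 32851 windows. Either word was found in 74.47% and 38.6%. The genes were listed partly as hypoxia targets, so these shares are not a test of the set. Windows of the same gene can overlap and hold the same match, as in Aldoa and Eno1. The windows were not matched for base composition. Because a palindromic CACGTG is counted on both strands, overlapping matches can mark 1 site. The first windows of 5 genes are shown, 5′ to 3′ on the strand of the gene, with every match on either strand in capitals, because each was called between replicates in several recombinations. They were chosen after their values were seen: Slc16a3 and Ldha were lower in replicate 2 of i12 and i10, Bnip3 and Egln3 had opposite signs, and Vegfa was higher in replicate 2 of d3, d6, i12 and i10.

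Slc16a3, chr11:120948817-120949066, plus strand: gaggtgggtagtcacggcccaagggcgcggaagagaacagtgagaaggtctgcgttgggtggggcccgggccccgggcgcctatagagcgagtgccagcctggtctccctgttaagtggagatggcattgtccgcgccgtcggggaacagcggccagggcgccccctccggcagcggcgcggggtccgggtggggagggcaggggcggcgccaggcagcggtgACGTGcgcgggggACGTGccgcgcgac
Ldha, chr7:46845554-46845803, plus strand: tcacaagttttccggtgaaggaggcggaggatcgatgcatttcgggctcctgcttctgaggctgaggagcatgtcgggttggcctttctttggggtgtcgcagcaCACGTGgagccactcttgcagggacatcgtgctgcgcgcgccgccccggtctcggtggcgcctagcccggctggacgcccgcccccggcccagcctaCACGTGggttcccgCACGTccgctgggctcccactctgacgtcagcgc
Bnip3, chr7:138909507-138909756, minus strand: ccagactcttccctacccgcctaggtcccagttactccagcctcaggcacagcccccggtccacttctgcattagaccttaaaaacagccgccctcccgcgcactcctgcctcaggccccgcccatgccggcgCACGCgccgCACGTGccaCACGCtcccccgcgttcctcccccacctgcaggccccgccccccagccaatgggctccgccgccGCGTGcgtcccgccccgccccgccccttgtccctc
Egln3, chr12:54203875-54204124, minus strand: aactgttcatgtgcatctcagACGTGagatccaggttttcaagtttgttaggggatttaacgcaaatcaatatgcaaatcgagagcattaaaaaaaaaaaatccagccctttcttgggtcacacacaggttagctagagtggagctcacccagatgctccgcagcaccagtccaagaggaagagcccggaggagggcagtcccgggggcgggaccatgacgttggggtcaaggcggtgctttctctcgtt
Vegfa, chr17:46032378-46032627, minus strand: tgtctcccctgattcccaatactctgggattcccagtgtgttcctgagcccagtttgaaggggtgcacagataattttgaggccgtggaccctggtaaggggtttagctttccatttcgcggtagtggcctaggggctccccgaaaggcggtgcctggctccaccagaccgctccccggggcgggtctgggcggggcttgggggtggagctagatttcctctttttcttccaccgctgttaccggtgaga

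Slc16a3 carries ACGTG 27 and 14 bases before the start. Ldha has 5 matches, of which the pairs at 145 and 144 and at 48 and 47 bases before the start are palindromes and a further match at 34 is on the other strand. Bnip3 has 2 matches to ACGTG, at 108 and 107 bases, and 3 to GCGTG. Egln3 has 1 match, 229 bases before the start. The first window of Vegfa holds neither word, which says only that these letters are not in this window. A second annotated start of Vegfa has a window with 1 of each. Of the other genes called in both directions, the first window of Slc2a1 has ACGTG 36 and GCGTG 61 bases before the start, and that of Tpi1 holds neither word. Matches are descriptions of sequence, and binding was not measured.

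The comparison the study was built for, recombined clone against parental line, called none of the 32 rows in any of the 7 clones when the replicate numbers were left out of the fit, for the 16253 genes tested. Of all genes, clone 12 of d3 and clone 16 of d6 each had 0.0123% called, d3 clone 21 had 0.0554%, i7 clone 12 had 0.0246%, and the other 3 clones had 0%. By unadjusted p under 0.05 it was 1 row in d3 clone 12, Hif1a, and 0 rows in the other 6 clones. DESeq2 called 0 in all 7. The median change of the 32 rows lay between -0.12 (i10 clone 18) and 0.03 (d3 clone 12) in 6 clones and was 0.22 in i7 clone 12, where the median of all genes was within 0.02 of 0. Hif1a had the smallest p in d3 clone 12, at 78.4 and 98.3 CPM against 81.4 and 43.3 CPM in the parental line (0.50 ± 0.22 SE, edgeR adjusted p = 0.996). Mif had it in d3 clone 21 (-0.31) and in d6 clone 16 (0.21). It was Pfkfb3 in i7 clone 7 (0.37), Pfkm in i12 clone 10 (-0.53) and the upstream Aldoa model in i10 clone 18 (-0.83), and none of these was called. Without d3 parental replicate 1, 1 row was called in d3 clone 12. The mean effect over the recombinations, the test for differing effects and the d3 clones against each other also called 0 rows, where 0.0123%, 0.0123% and 0.0492% of all genes were called, with 0 rows by unadjusted p under 0.05 and 0 by DESeq2. With replicates this far apart, 22% of simulated 2-fold and 97% of simulated 4-fold changes between a clone and its parental line were called. Each of these rates and those below rests on 100 of the 16253 genes. The rate for genes with few counts, such as the upstream Aldoa model (median 9 counts), was not tested. Where the simulated shifts between replicates were shared by the clone and its parental line, this fit without the block called 7% of 2-fold and 100% of 4-fold changes. The fit with the block called 94% and 100% of them, so 2-fold changes can be missed where the replicate numbers are left out.

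With the replicate number as a block, rows were called in i7 clone 12. The shares of all genes called with the block in the other clones are not given here. Against the i7 parental line, 5 of the 32 rows were then called, 4 higher and 1 lower, where 6.27% of all genes were called (3.52% higher and 2.75% lower, and 0.0246% in all without the block). Against i7 clone 7, 13 rows were called, 12 higher and 1 lower, against 9.76% of all genes (4.87% and 4.89%; 0.0923% without the block, and 0 rows, with 2 by unadjusted p under 0.05 and 0 by DESeq2). The 2 comparisons share the clone 12 libraries. Ankrd37 was at 3.15 and 3.53 CPM in the parental line, 5.33 and 2.65 CPM in clone 7 and 9.66 and 11.8 CPM in clone 12 (replicate 1, replicate 2), a change of 1.67 ± 0.30 SE against the parental line (edgeR with block, adjusted p = 0.00328; 0.838 without). Eno2 was at 8.01 and 7.69, 6.63 and 10.4 and 15.8 and 20.8 CPM (1.22 ± 0.21, edgeR adjusted p = 0.00234 with the block and 0.999 without). Both clone 12 libraries were above all 4 others in both genes. Egln3 was at 7.87 and 5.74, 9.35 and 3.56 and 17.7 and 10.4 CPM (1.00 ± 0.22, edgeR adjusted p = 0.012 with the block and 0.941 without). Ndrg1 was at 29.8 and 20.3, 26.6 and 23.2 and 60.7 and 34.9 CPM (0.91 ± 0.15, edgeR adjusted p = 0.00214 with the block and 1 without). Vegfa was the exception, at 64.6 and 53.1, 51.8 and 54.4 and 31.8 and 40.7 CPM, lower in clone 12 (-0.70 ± 0.15, edgeR adjusted p = 0.013 with the block and 1 without).

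Against clone 7, the same 5 genes were called with the block, with changes from -0.55 (Vegfa) to 1.51 (Ankrd37). The other 8 were Bnip3, the glucose transporter, Pdk1 and 5 enzymes, with these log2 changes: Bnip3 0.73, Eno1 0.65, Ldha 0.63, Tpi1 0.60, Slc2a1 0.51, Pkm 0.42, Pdk1 0.40 and Gpi1 0.35. Ldha was at 2412 and 1873 CPM in clone 12 against 1622 and 1155 CPM in clone 7, and Slc2a1 at 146 and 102 against 101 and 72.4 CPM. Pdk1 was at 360.4 and 331 against 262 and 261 CPM. In these 3 genes both clone 12 libraries were above both clone 7 libraries. In all, 19 of the 32 rows lay above the clone 7 libraries without overlap and 4 below, against 24.7% and 26% of all genes, and 17 above and 4 below the parental libraries, against 24.2% and 25%. Clone 7 against the parental line had 3 above and 7 below, against 13.8% and 11.9%, and 0 rows called with or without the block (0 by unadjusted p under 0.05). Left out 1 library at a time, the blocked fit against the parental line called 1 row without parental replicate 1, 4 without parental replicate 2 and 2 without either clone 12 library. Against clone 7 it called 3 without clone 7 replicate 1, 2 without clone 7 replicate 2, 3 without clone 12 replicate 1 and 4 without clone 12 replicate 2. With the block, 7 of 76 other pathway genes (the 3 lists named above, 1 gene being in 2 of them) were called against the parental line (5 higher). Among them were Hkdc1, a hexokinase (3.13 ± 0.75 SE), and Pgam1 (0.80 ± 0.15). Against clone 7, 14 were called (10 higher). Of all genes, 6.27% and 9.76% were called in these 2 comparisons, and the marker counts below are to be read against the same shares. Other markers moved with clone 12. The primed markers summed to 145 and 97.7 CPM in its 2 libraries, 70.5 and 78.0 CPM in the parental line and 71.6 and 61.9 CPM in clone 7, with 1 of 5 called higher against the parental line and 3 of 5 against clone 7. The neural markers summed to 95.4 and 106 CPM in clone 12 and 64.7 to 74.5 CPM in the other i7 libraries, and the feeder markers to 25.7 and 25.0 against 14.7 to 17.2 CPM. The part of these markers in the result was not tested.

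**Figure D4:**
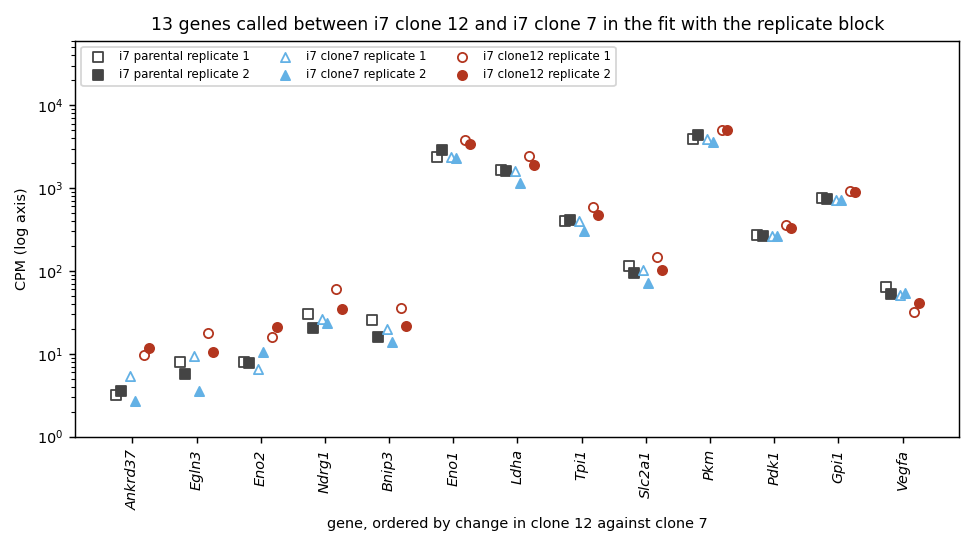
Level of the 13 genes called between i7 clone 12 and i7 clone 7 with the replicate block, in CPM on a log axis, in both replicates of the 3 i7 lines. The clone 12 points lie above the clone 7 points in the first 12 genes and below them in Vegfa, where clone 12 is at 31.8 and 40.7 CPM.

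Among the 5 parental lines, which carry no recombination, 2 of the 32 rows differed, Pfkm and Ldhb, against 6.64% of all genes. The share of called rows was thus near that of all genes. Pfkm, the muscle phosphofructokinase, was at 7.93 and 12.3 CPM in d3, 12.9 and 17.8 in i7, 25.05 and 28.2 in d6, 23.1 and 34.6 in i12 and 25.1 and 38.9 in i10 (edgeR adjusted p = 0.0137). Of the 10 pairs of lines, d3 was lower than d6, i12 and i10 by 1.40, 1.51 and 1.66 on the log2 scale. Differences between pairs of lines are given as values only. The i7 line lay between them. Ldhb was at 2.64 and 6.37 CPM in d3, 9.19 and 12.02 in i7, 17.8 and 19.5 in d6, 16.003 and 71.2 in i10 and 26.9 and 81.5 in i12 (edgeR adjusted p = 0.04). Its level in d3 was lower than in i12 and i10 by 3.60 and 3.27 on the log2 scale. The Ldhb call was lost without either d3, d6 or i7 parental library or without i12 parental replicate 2. In the clones Ldhb was at 1.85 and 5.38 CPM in d3 clone 12, 2.62 and 7.15 in d3 clone 21, 23.6 and 72.5 in i12 clone 10 and 22.5 and 67.7 in i10 clone 18. A different block was used here, a single replicate term shared by all recombinations rather than a term within each. With it, 5 rows were called, a smaller share than the 22.6% of all genes. This added Hk1 (edgeR adjusted p = 0.0017), Kdm3a (0.0346) and Ankrd37 (0.0434). In these added genes the joint test above called a replicate difference that differs between recombinations, which a shared term does not take up. Hk1 was at 46.7 and 102 CPM in d3 and 141 and 266 CPM in i10, Kdm3a at 95.7 and 51.2 and 47.1 and 28.02 CPM in d3 and i12, and Ankrd37 at 17.2 and 29.1 CPM in d3 and 3.15 and 3.53 CPM in i7. The parental lines also differ in depth, and the part of depth was not tested.

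Each library has counts for both parental strains, and differences between 129S1 and CAST were large. In the parental lines 22 of the 30 rows that could be tested had a 129S1 to CAST ratio other than 1, 12 higher on 129S1 and 10 on CAST, against 69.2% of the 10795 genes tested (36.1% and 33.1%), so that the share of called rows was near that of all genes. The ratio was more than 2-fold from 1 in 10 of the 30, against 20.6% of all genes: Tpi1, Mif, Ldhb, Ndrg1, Pfkm and Egln1 towards 129S1, and Gapdh, Gpi1, Pkm and Eno2 towards CAST. Tpi1 came from 129S1 in 87.1% to 94.8% of its counts (24 libraries, median 89.8%), with a log2 ratio of 3.12 ± 0.06 SE (edgeR adjusted p = 2.28e-20). In Gapdh the 129S1 share was 8.17% to 17.4% (median 11.9%; -3.02 ± 0.10, edgeR adjusted p = 2.99e-16). The shares of these 2 genes, opposite in direction, did not come near each other in any library. Gpi1 had 17.7% to 23.3% (-1.91 ± 0.04, edgeR adjusted p = 1.30e-19) and Pkm 16.4% to 23.6% (-1.87 ± 0.05, 4.93e-18). Both alleles of Ldha (40.4% to 45.9%; -0.39), Pfkl (34.1% to 41.6%; -0.72), Hk2 (60.000% to 65.5%; 0.73) and Hif1a (54.9% to 69.5%; 0.59) were expressed, with smaller called ratios. Slc2a1 (43.98% to 56.8%; 0.05) and Pdk1 (45.8% to 55.5%; -0.01) were near equal and not called, like Hk1, Eno1, Slc16a3, Vegfa, Ankrd37 and P4ha2.

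**Figure D5:**
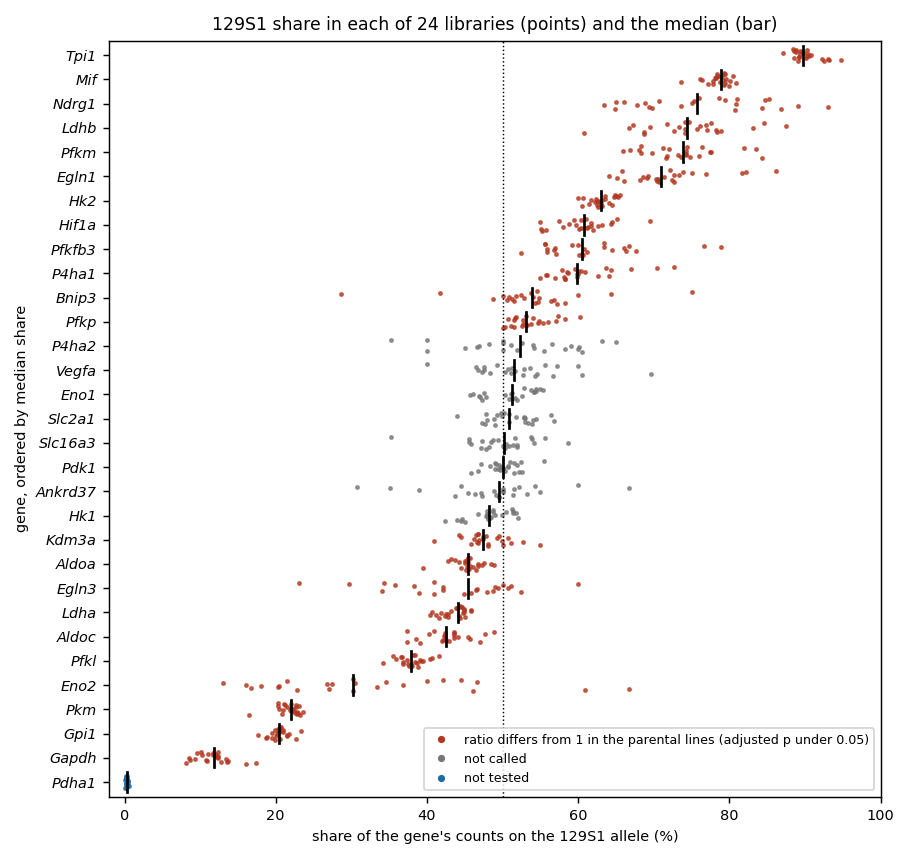
Share of the counts on the 129S1 allele, in percent, for 31 genes (rows) in each of the 24 libraries (points) with the median (bar), coloured by the test in the parental lines. Tpi1 has a median of 89.8% and Gapdh of 11.9%, and Pdha1 lies at the left edge with a median of 0.282%.

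Tpi1, Eno2 and Gapdh lie within 1 stretch of chromosome 6, at chr6:124810586-124814296, chr6:124760053-124769673 and chr6:125161715-125166467 (GRCm38, GENCODE M21, all on the minus strand), and have median 129S1 shares of 89.8%, 30.2% and 11.9%. Shared sequence limits these values: Gapdh, Mif, Eno1, Pkm and Ldhb share 12.6% to 28.2% of their 75-base words with other genes. How reads without an informative variant were split between the 2 columns is not given in the sources used here. The calls of Kdm3a and Bnip3 were lost when single libraries were left out (Kdm3a without d3 or i7 parental replicate 1, Bnip3 without any of 8 of the 10 parental libraries), and that of Bnip3 also with the block.

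For a shift of the allelic ratio against the parental line, 0 of 30 rows were called in each of the 7 clones, with 0 to 3 rows by unadjusted p under 0.05 and 0 by DESeq2. Of the 10795 genes, d3 clone 21 had 3.41% called and i7 clone 12 had 2.33%. Clone 12 of d3 and clone 16 of d6 had 0.0463% each, clone 7 of i7 and clone 10 of i12 had 0.00926% each, and clone 18 of i10 had 0%. The smallest p was that of Tpi1 in d3 clone 12 (shift 0.67 ± 0.17 SE, edgeR adjusted p = 0.496), with 129S1 shares of 93.2% and 94.8% against 92.5% and 89.05% in the parental line. Without d3 parental replicate 1, 1 row was called in d3 clone 12 and 2 in d3 clone 21. The ratio differed among the 5 parental lines in 0 of 30 rows, against 1.29% of all genes (2 rows by unadjusted p under 0.05, 0 by DESeq2), and in 2 with the block, Eno1 (edgeR adjusted p = 0.00919) and Ndrg1 (0.0354), against 8.13%. Pdha1, the 1 X-linked gene of the set, had 0 to 9 counts per library on 129S1 and 485 to 2100 on CAST, too few to test. Of 299 X-linked genes with at least 2000 counts in all, 149 had less than 2% of their counts on 129S1, against 3.23% of autosomal genes. Adm and the upstream Aldoa model had too few counts per allele as well.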

How the data were processed

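RNA from 24 libraries was sequenced as 75-base reads. The authors deposited whole-number counts per gene in 2 columns per library, 1 for the 129S1 and 1 for the CAST allele, per the file headers. Per the submitters' processing notes, STAR and SAMtools were used with genome build mm10. The counter, its annotation, its use of strand and what was done with reads that cover no informative variant are not given in the sources used here. Strand being unstated, reads of overlapping antisense genes cannot be told apart. Columns were mapped to samples by name, and groups came from the sample labels.

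Both allele columns were summed for expression. Library totals were 3286819 to 15581094 counts, which sets the counting error of low genes. Genes were kept with edgeR's filterByExpr over the 12 groups (16253 genes), scaled with TMM and tested with edgeR 4.0.16 (R 4.3.3) quasi-likelihood tests over all 24 libraries, with Benjamini-Hochberg adjustment over all genes and a threshold of 0.05. CPM are counts over the TMM-scaled library totals, and levels per kilobase use the union of exons in GENCODE M21. Replicate differences come from a fit with the replicate number, within each recombination, as a term. The allelic ratio was tested in 1 fit of both columns for the 10795 genes whose mean on each allele reached 10 counts. The study calls the replicates biological duplicates, but the labels do not say that they are separate cultures. The p-values therefore measure the spread between these samples, which may be technical.

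Same-numbered replicates deviated together in 9 of 9 pairs of groups of the same recombination (r = 0.358 to 0.688, across genes), and in 39 of 57 pairs of different recombinations r was over 0.1 as well (up to 0.603; 0.397 to 0.603 between d3 and d6, and 0.50 to 0.582 between i12 and i10). As every pair within a recombination was over 0.1, the numbers were taken to pair the samples. The fit without the block is kept as the main one, because the labels do not say what the replicate numbers share. It is less sensitive than the fit with the block to simulated 2-fold clone changes where replicates shift together. Values with the block are given where they change a call or a count. Alternatives were the block, DESeq2 1.42.0, DESeq2 size factors in edgeR, no filter on low counts, no mitochondrial genes, only the groups compared, a mean of 50 counts per allele, and leaving out each library. For expression among the parental lines, the block was a single replicate term shared by all recombinations. On simulated data for the 16253 genes, 94% of 2-fold and 100% of 4-fold clone changes were called with the block. For the 10795 genes it was 74% and 99% of allelic shifts. Each rate rests on 100 genes, and the rate for genes with few counts was not tested.

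Members and lists were chosen with earlier results of these data known. All members are named with their range. Values in every library are given for at most 4 called members per comparison, by size of change, for the smallest p where none was called, and for Hif1a, Slc2a1, Ldha and Pdk1. Of other lists, at most 3 called genes per comparison are named. Figures used matplotlib 3.10.9.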

Additional observations from a re-analysis of the deposited data

Results flagged for a closer look

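The difference between replicate 2 and replicate 1 was not the same in the 5 recombinations for 25 of the 32 tested rows, by edgeR's joint test of the difference itself, where 24.7% of all genes were called. The replicate numbers have no stated meaning, and swapping them within any recombination would change this test. For the transporters the edgeR adjusted p was 5.81e-05 for Slc2a1 and 2.10e-04 for Slc16a3. For the enzymes from hexokinase to pyruvate kinase it was 0.0132 for Hk1, 1.86e-04 for Pfkl, 0.0222 for Pfkp, 9.67e-04 for Aldoa, 9.70e-05 for Aldoc, 1.21e-05 for Tpi1, 0.0486 for Gapdh, 0.00162 for Eno1, 9.70e-05 for Eno2 and 1.98e-04 for Pkm. Among the genes of pyruvate use the edgeR adjusted p was 5.57e-05 for Ldha, 5.12e-04 for Ldhb, 5.23e-04 for Pdk1 and 0.0154 for Pdha1. The hydroxylases had an edgeR adjusted p of 2.14e-05 for Egln1 and 3.79e-05 for Egln3. The other hypoxia targets had an edgeR adjusted p of 4.54e-06 for Vegfa, 1.27e-06 for Bnip3, 3.54e-04 for Ankrd37, 0.014 for P4ha1, 6.46e-04 for P4ha2, 1.02e-07 for Ndrg1 and 0.00661 for Kdm3a.

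Leaving out single libraries ended 5 of these 25 calls. That of Gapdh was lost without any one of 18 libraries, and Pdha1 without either d6 clone 16 library. The calls of Hk1 and P4ha1 were lost without either i7 parental library, and that of Pfkp without any one of 10 libraries.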

How the results depend on the processing

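The counts of called rows in i7 clone 12 moved with the processing. Against the parental line, 0 became 5 with the replicate block, 1 without the filter on low counts and 2 with only the groups compared. Against i7 clone 7, 0 became 13, 1 and 1 under the same alternatives. With the block and 1 library left out, the counts were 1, 4, 2 and 2 against the parental line, and 3, 2, 3 and 4 against clone 7. Among the parental lines, 2 rows became 5 with a block shared by all recombinations and 15 without the filter. For the allelic ratio among the parental lines, 0 became 2 with the block. The block changed no other count of calls by over 1.5 times. The cause of these shifts was not tested.

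Leaving out 1 library at a time, without the block, gave 0 to 1 called rows in d3 clone 12, 0 to 0 in the other clone comparisons and 1 to 2 among the parental lines. For the replicate differences, d3 gave 15 to 19 rows, d6 gave 8 to 11, i7 gave 0 to 2, i12 gave 11 to 16 and i10 gave 12 to 16. Their mean gave 15 to 27, the lowest without recombination i10, and the joint test 21 to 26. For allelic ratios the range was 0 to 1 in d3 clone 12, 0 to 2 in d3 clone 21 and 20 to 22 for 129S1 against CAST. Single genes were followed under the alternatives only if called in the main fit of their comparison, or with the block in i7 clone 12. Of these values, 2502 kept their side of the threshold, 44 passed it and 184 no longer did. Where a test had a direction, 0 reversed, and the joint tests have no direction. Depth limits Ankrd37 and the upstream Aldoa model most.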
